A study of Mus musculus with 2 samples.

Results

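Ly6a, Ly6c1, Ly6c2, Ly6d, Ly6e and Ly6k belong to the Ly6 family of mouse surface genes. They were taken by symbol, and each symbol matched 1 gene, so they are 6 of the 32285 genes measured. The choice was made with their UMI counts by transcript class, Isg15, state gene and genotype already known. All values are therefore descriptions, and no test was made. Ly6 proteins are small, carry a LY6/uPAR fold and are held in the outer membrane by a glycosylphosphatidylinositol (GPI) anchor. Several serve as surface markers in blood cell development. Ly6a encodes Sca-1, used to sort haematopoietic stem cells and raised on activated lymphocytes and by interferon. Ly6c1 and Ly6c2 encode the Ly6C antigen of monocytes and T cell subsets, Ly6d marks lymphoid progenitors, Ly6e is an interferon-induced thymic antigen, and Ly6k is best known from mouse sperm.

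The study compared thymic cells of the regulatory T cell (Treg) lineage from 1 Foxp3eGFPxLta-/- mouse (called Lta-/- below) with those of 1 Foxp3eGFP mouse, both C57BL/6 and both carrying the Foxp3eGFP reporter. Lta encodes lymphotoxin alpha, a cytokine of the tumour necrosis factor family. Ages and other treatments are not stated in the labels. Thymocytes were depleted of CD8+ and CD11c+ cells, tagged by genotype with a hashtag antibody and sorted as CD4+, CD8-, CCR6- and CD3e+ cells with CD25, eGFP or both. They were then sequenced together in 1 droplet capture that counts unique molecular identifiers (UMIs) at the 3′ end of transcripts. The antibody numbers in the hashtag feature names are not those in the labels, and genotypes were read from the feature names. Cells so called Lta-/- held 72 Lta UMIs and those called Foxp3eGFP held 509.

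After filtering, 2244 Lta-/- cells (14054827 UMIs, median 5395 per cell) and 2209 Foxp3eGFP cells (15010916 UMIs, median 5547) remained, and all 4798 barcodes of the capture were distinct. With 1 mouse per genotype, genotype and mouse cannot be told apart, and cells of 1 mouse are not replicates. Levels are summed UMIs per 1000000 UMIs of a group (CPM). All intervals are 95% intervals that cover counting error only. Of genes for the sorted markers, Cd3e was found in 95.1% of cells, Cd8a in 2.72% and Ccr6 in 2.36%, while Cd8b1, the other CD8 chain, was found in 14.6%. Cd4 was found in 59.4%, Foxp3 in 19.9% and Il2ra, which encodes CD25, in 21.9%, so a cell without a UMI of these genes may still have passed the gate. A mixed group of 116 cells carried markers of other lineages and stands apart. Where leaving it out changes whether a gene passes the fold used below, both values are given.

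All 6 genes lie on chromosome 15 (GRCm38). Ly6d (ENSMUSG00000034634) spans 74762056 to 74763567, Ly6k (ENSMUSG00000044678) spans 74796874 to 74799968 and Ly6e (ENSMUSG00000022587) spans 74955025 to 74959904. Ly6a (ENSMUSG00000075602) spans 74994877 to 74998031, Ly6c1 (ENSMUSG00000079018) spans 75044018 to 75048920 and Ly6c2 (ENSMUSG00000022584) spans 75108161 to 75112066. Ly6c1 and Ly6c2 are close copies, and how the authors' counting split reads between them is not given in the sources used here, so their separate values are uncertain. The 250 bases before the most upstream listed start of each are shown, on the minus strand of GRCm38.p6 in RefSeq. They are given because these copies had different patterns among the cells. Each window holds the upper end of the gene span given above, at 75048920 for Ly6c1 and 75112066 for Ly6c2. Part of each window thus lies inside its gene span, and bases further upstream were not examined. Capitals mark bases that differ from the other copy or have no partner in it.
Ly6c1, chr15:75048838-75049087: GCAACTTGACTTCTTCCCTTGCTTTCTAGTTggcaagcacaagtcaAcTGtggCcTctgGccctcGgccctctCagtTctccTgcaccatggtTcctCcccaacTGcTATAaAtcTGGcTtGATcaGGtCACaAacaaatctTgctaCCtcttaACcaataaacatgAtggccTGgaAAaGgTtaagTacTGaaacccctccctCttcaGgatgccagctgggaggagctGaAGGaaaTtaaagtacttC
Ly6c2, chr15:75111972-75112221: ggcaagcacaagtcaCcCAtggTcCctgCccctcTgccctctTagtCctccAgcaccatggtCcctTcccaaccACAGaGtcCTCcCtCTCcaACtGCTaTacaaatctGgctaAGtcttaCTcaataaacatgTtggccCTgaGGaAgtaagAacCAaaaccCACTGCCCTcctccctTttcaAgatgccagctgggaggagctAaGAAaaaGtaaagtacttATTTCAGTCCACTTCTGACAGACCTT
Of 216 aligned base pairs, 164 (75.9%) were identical, and 86 bases of each window are in capitals. Both windows were searched on both strands for an interferon-stimulated response element, TTTCNNTTTC, and a gamma-activated site, TTCNNNGAA, which do not overlap each other as searched. Neither pattern was found in either window, while 2.98% and 7.02% of the 32851 promoter windows of the table hold them.

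Detection ran from nearly all cells to very few. Ly6e had 18659 UMIs in 3847 cells (86.4%) and ranked 191 among all genes by UMIs. Ly6a had 4263 UMIs in 1162 cells (26.1%), Ly6k had 1216 in 665 cells (14.9%) and Ly6c1 had 615 in 328 cells (7.37%). Ly6d had 580 UMIs in 105 cells (2.36%), and Ly6c2 had 239 in 78 cells (1.75%). Ly6d and Ly6c2 were rare but high where present: 11 cells held 50% of the Ly6d UMIs and 7 cells held 50% of the Ly6c2 UMIs, with up to 70 and 37 UMIs in a cell. For Ly6e the same share was spread over 766 cells, for Ly6a over 176, for Ly6k over 159 and for Ly6c1 over 72. No cell held all 6 genes, 487 held none and 2239 held 1.

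Of 36 other Ly6 and uPAR family genes listed, 31 are in the matrix, and 20 of these had 0 UMIs, which allows up to 3 UMIs among 29065743. Only Lypd6b (168 UMIs), Lynx1 (96) and Plaur (80) reached the 50 UMIs set for a ratio. Ly6m, a neighbour of Ly6e, had 47 UMIs. Ly6i had 18 UMIs in 8 cells, 2 in Lta-/- and 16 in Foxp3eGFP cells. Genes for making and attaching the GPI anchor were all detected, 26 of 26.

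Cells were clustered on other genes, with the 6 Ly6 genes, Foxp3, Il2ra and Isg15 left out, and 10 clusters resulted. By marker lists, cluster 4 (539 cells) was mature Treg-like, cluster 1 (772) mature CD4 single-positive-like, cluster 3 (599) immature CD4 single-positive-like, clusters 2 (605) and 5 (486) agonist-signalled precursor-like and cluster 6 (295) proliferating-like. Clusters 0 (772), 7 (211), 8 (116) and 9 (58) were left unnamed. Cluster 0 had 10 of 12 interferon-responding and 6 of 12 mature Treg markers higher than the other cells. Cluster 7 had 12 of 14 effector or recirculating Treg and 7 of 10 innate-like T markers higher. Of gamma-delta T markers 6 of 10 were higher there, and of natural killer or innate lymphoid markers 5 of 12. Cluster 7 was led by Gzmc, Cxcr6, S100a4 and Klrd1. Cluster 8 is the mixed group, led by Iglc2, Mzb1, Lyz2 and C1qc. The Ly6 genes were highest in 3 different clusters.

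Ly6a was highest in cluster 7, at 869 CPM (820 to 921) with a UMI in 74.4% of cells. That cluster held 4.74% of cells and 26.9% of Ly6a UMIs. Cluster 4 followed at 228 CPM and cluster 1 at 180 CPM, ahead of clusters 6 (173 CPM), 8 (152), 9 (122), 0 (71.4), 2 (54.5) and 5 (49.9). Cluster 3 was lowest at 28.2 CPM, 30.8-fold below cluster 7, with a UMI in 8.01% of cells. Neighbours in this order from cluster 1 to cluster 9 had overlapping intervals, as had clusters 2 and 5.

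Ly6c1 was highest in mature Treg-like cluster 4, at 83.0 CPM with a UMI in 19.1% of cells, and 38.4% of its UMIs lay there. Clusters 1 and 0 had 28.4 and 28.3 CPM, with overlapping intervals. Precursor-like cluster 5 was lowest at 1.85 CPM, 45.0-fold below cluster 4 (21.5 to 113), with a UMI in 1.44% of cells. In cluster 7, where Ly6a was highest, Ly6c1 had 9.11 CPM.

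The copy Ly6c2 had another pattern, with 81.0 CPM in mixed cluster 8 and 70.6 CPM in cluster 7, whose intervals overlap. These clusters held 31.4% and 38.9% of its UMIs, in 8.62% and 9.95% of their cells. In cluster 4, the place of highest Ly6c1, Ly6c2 had 5.98 CPM, and no other cluster passed 5.16 CPM. Few cells carry this pattern. The 21 cells with at least 2 UMIs of the natural killer receptor gene Klrd1 held 36.0% of Ly6c2 UMIs, and the 22 cells with at least 2 UMIs of the macrophage lysozyme gene Lyz2 held 24.7%.

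Ly6d lay mostly in mixed cluster 8, at 433 CPM with 69.1% of its UMIs and a UMI in 27.6% of cells. The next levels were 13.0 CPM in cluster 6 and 10.8 CPM in cluster 2, and cluster 9 had 0 UMIs. Within cluster 8, the 38 cells with a UMI of Dntt, the terminal transferase of receptor-rearranging thymocytes, held 387 Ly6d UMIs (575 CPM, median depth 15224 UMIs). The 78 cells without one held 14 (55.5 CPM, median depth 1406). Ly6c2 split the other way, with 6 and 69 UMIs. Across all clusters, the 58 cells with at least 2 Dntt UMIs held 66.7% of Ly6d UMIs, and all 10 cells with at least 2 UMIs of Ptcra, the pre-T cell receptor gene, had a Ly6d UMI and held 21.4% of its UMIs. Cells with at least 2 UMIs of Rag1 held 22.9% of Ly6d UMIs and those with at least 2 of Cd8b1 held 22.2%. The 84 cells with at least 2 UMIs of Trdc, a gamma-delta receptor gene, held 47.6%, and these sets of cells can overlap. In cluster 8, 7 of 11 double-positive thymocyte markers, 8 of 10 plasma cell markers and 8 of 12 macrophage, monocyte or dendritic markers were higher than in the other cells. Of 8 neutrophil markers there, 7 were at 0 UMIs.

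Ly6e varied least, by 3.08-fold, with 1147 CPM in cluster 8, 1029 in cluster 7, 845 in cluster 4 and 833 in cluster 6 at the high end. The immature CD4 single-positive-like cluster 3 was lowest at 373 CPM, and clusters 1 and 5 had 481 and 480 CPM. Ly6k was low in the clusters where Ly6a was highest. It had 107 CPM in cluster 8, 60.1 in precursor-like cluster 5, 57.4 in cluster 9 and 46.8 in cluster 0. It had 23.2 CPM in cluster 4 and 6.83 CPM in cluster 7, where 2.84% of cells had a UMI. No cell type here is sure to lack these genes, so the lowest shares (Ly6a 8.01% in cluster 3 at a median depth of 5414 UMIs, Ly6k 2.84% in cluster 7 at 5005) are the closest measure of free RNA.

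**Figure D1:**
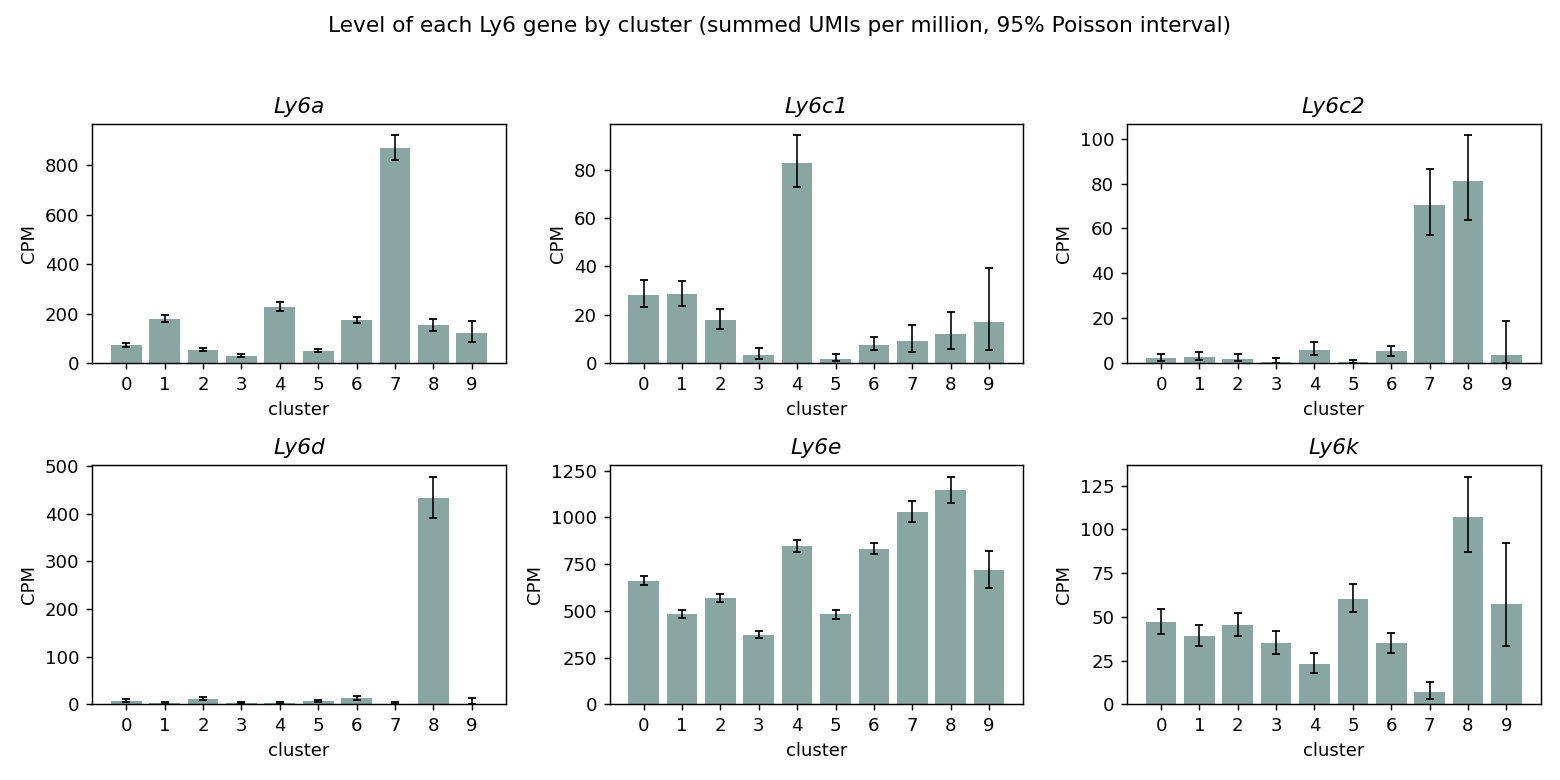
Level of each Ly6 gene in 10 clusters of cells (summed UMIs per 1000000, CPM; bars, level; lines, 95% Poisson interval). Ly6a stands highest in cluster 7 at 869 CPM, Ly6c1 in cluster 4 at 83.0 CPM, Ly6d in cluster 8 at 433 CPM, and Ly6k is lowest in cluster 7 at 6.83 CPM.

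Some of these genes met in the same cells. To compare at equal depth, each cell was thinned to 3000 UMIs, which left out 162 Lta-/- and 147 Foxp3eGFP cells. Of cells with a thinned Ly6a UMI, 13.0% also had Ly6c1, against 3.05% of cells without (18.1% and 3.59% before thinning). Of 43 cells with a thinned Ly6c2 UMI, 53.5% had Ly6a, against 18.9% of cells without, and 11.6% had Ly6c1, against 4.90%. Ly6k was found in 20.8% of cells with thinned Ly6d, against 9.70% of those without, and in 9.40% of cells with Ly6a, against 10.0% of those without. Thus Ly6a shared cells with both Ly6C copies, while Ly6k was found at about the same share with and without Ly6a.

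Across 19 points (clusters split by genotype, all from 1 library), the highest correlations of log2(CPM + 1) between members were 0.84 for Ly6c2 with Ly6e, 0.71 for Ly6a with Ly6e and 0.69 for Ly6a with Ly6c2, and Ly6a with Ly6k gave -0.61. Ly6c1 with Ly6c2 gave 0.17. Among 9022 genes, the patterns most like Ly6a were those of the adhesion receptor gene Adgre5 (r = 0.88), Golm1 (0.87), Klrd1 (0.86) and Il18r1, an interleukin-18 receptor chain (0.84). Those most like Ly6c1 were Itga6, an integrin chain (0.87), Smad7, Tsc22d3 and Cd55 (each 0.86). Ly6c2 was most like Rras (0.94), Evi2a, Cmtm7, Cybb and Mta3. Ly6d was most like Cux1 (0.91), Aqp11, Clic4, Lyz2 and Zbed4, and Ly6e was most like the kinase gene Pim1 (0.90), Cmtm7, Crip1, Apobec3 and Serinc3. The closest match to Ly6k was weaker, at 0.80 for Recql5, followed by Mid1, AI597479, Zfp335 and Xlr4a.

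Between genotypes, Ly6k and Ly6d were lower in Lta-/- cells. Ly6k had 342 UMIs (24.3 CPM) in Lta-/- cells and 874 (58.2 CPM) in Foxp3eGFP cells, in 9.40% and 20.6% of cells. The log2 ratio, Lta-/- over Foxp3eGFP as throughout, was -1.26 (-1.44 to -1.08), and the intervals of the levels do not overlap. Ly6d had 155 UMIs (11.0 CPM) in Lta-/- cells and 425 (28.3 CPM) in Foxp3eGFP cells, a log2 ratio of -1.36 (-1.64 to -1.09). A gene was counted as higher or lower when its level differed at least 1.5-fold with at least 50 UMIs in both groups together. By that rule 0 of the 6 Ly6 genes were higher and 2 were lower, where 2.41% and 2.83% of 10709 measured genes were. With cells thinned to 3000 UMIs, Ly6c1 (-0.69) and Ly6c2 (0.69) passed the fold as well, and Ly6k was at -1.38. Proliferation markers moved with genotype, with 8 of 12 lower in Lta-/- cells, and 5.12% of Lta-/- cells lay in proliferating-like cluster 6, against 8.15% of Foxp3eGFP cells.

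The lower Ly6k level was found in every cluster. Its ratio was below 0 in 10 of 10 clusters, and the interval excluded 0 in 8. In CPM of Lta-/- and Foxp3eGFP cells, cluster 0 had 26.2 and 63.2, cluster 3 had 20.9 and 54.9, cluster 5 had 37.7 and 79.5, and cluster 6 had 20.1 and 44.6. The nearest to equal was mature Treg-like cluster 4, with 18.8 CPM in Lta-/- and 28.9 CPM in Foxp3eGFP cells (log2 ratio -0.62, -1.37 to 0.12). Mixed cluster 8 had 5 UMIs in Lta-/- and 94 in Foxp3eGFP cells, and without it the log2 ratio over the remaining cells was -1.14. In that cluster the 38 cells with a Dntt UMI held 81 Ly6k UMIs and the 78 cells without one held 18. The 2 cells there with a UMI of the plasma cell gene Jchain held 14. Plasma cell markers moved with genotype too, with 4 of 8 measured lower in Lta-/- cells and none of the 10 at 0. Their summed level was 145 CPM in Lta-/- and 805 CPM in Foxp3eGFP cells. Over all clusters, the 3 cells with at least 2 Jchain UMIs held 1.15% of Ly6k UMIs. The part of plasma cells in the Ly6k difference was not tested. Without the 45 cells with the most Ly6k UMIs, the ratio stayed below 0 in all 10 clusters.

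The lower Ly6d level rests on few cells. In cluster 8 it had 101 UMIs (306 CPM) in Lta-/- cells and 300 (504 CPM) in Foxp3eGFP cells, found in 13.6% and 42.1% of cells. Proliferating-like cluster 6 had 5 UMIs in Lta-/- and 53 in Foxp3eGFP cells. The log2 ratio without cluster 8 was -1.14, and without the 45 cells with the most Ly6d UMIs it was 0.22. Those 45 cells held 86.6% of Ly6d UMIs, and 12 of them were Lta-/- and 33 Foxp3eGFP cells. Double-positive thymocyte markers summed to 341 CPM in Lta-/- and 364 CPM in Foxp3eGFP cells, with 5 of 9 measured lower, 0 higher and none of 11 at 0. Gamma-delta T cell markers summed to 73.1 CPM in Lta-/- and 101 CPM in Foxp3eGFP cells, with 3 of 6 measured lower, 1 higher and none of 10 at 0. The part of either list in the Ly6d difference was not tested.

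The other 4 genes differed less than 1.5-fold between genotypes. Ly6e had 589 CPM in Lta-/- and 691 CPM in Foxp3eGFP cells (log2 ratio -0.23, -0.27 to -0.19), and was lower in 8 of 10 clusters, 7 with an interval below 0. Ly6c1 had 18.3 CPM in Lta-/- and 23.8 CPM in Foxp3eGFP cells (-0.38, -0.62 to -0.15), and in cluster 4, its place of highest level, 63.9 CPM in Lta-/- and 108 CPM in Foxp3eGFP cells (-0.75, -1.14 to -0.37). Without the 45 cells with the most Ly6c1 UMIs, the ratio in cluster 4 was -0.34 (-0.90 to 0.21). Ly6c2 had 9.75 CPM in Lta-/- and 6.80 CPM in Foxp3eGFP cells (0.52, 0.14 to 0.90). That ratio was 0.83 (0.36 to 1.31) without mixed cluster 8, past 1.5-fold, and 0.08 without cluster 7, where 5.75% of Lta-/- cells and 3.71% of Foxp3eGFP cells lay. The genes of the family thus had ratios on both sides of 0.

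Ly6a was nearly level over all cells, with 143 CPM in Lta-/- and 150 CPM in Foxp3eGFP cells (log2 ratio -0.07, -0.16 to 0.02), but not within clusters. In cluster 7 it had 999 CPM in Lta-/- and 699 CPM in Foxp3eGFP cells. In proliferating-like cluster 6 it had 85.6 CPM in Lta-/- and 231 CPM in Foxp3eGFP cells, and in mature CD4 single-positive-like cluster 1 it had 139 and 225 CPM in these genotypes. The pooled value sums these opposite directions, and without cluster 7 the log2 ratio was -0.44. Effector or recirculating Treg markers, several of which lead cluster 7, were counted over all cells: 4 of 12 measured were higher in Lta-/- cells, 0 were lower, and they summed to 758 CPM in Lta-/- and 648 CPM in Foxp3eGFP cells, with none of 14 at 0. Other lists with markers higher in cluster 7 did not all go this way. Innate-like T markers summed to 230 CPM in Lta-/- and 268 CPM in Foxp3eGFP cells (1 of 8 measured higher, 1 lower). Gamma-delta T cell markers summed to 73.1 and 101 CPM in these genotypes (1 of 6 higher, 3 lower). Natural killer or innate lymphoid markers summed to 93.1 and 76.3 CPM (4 of 7 higher, 1 lower). The part of these lists in the Ly6a values was not tested.

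**Figure D2:**
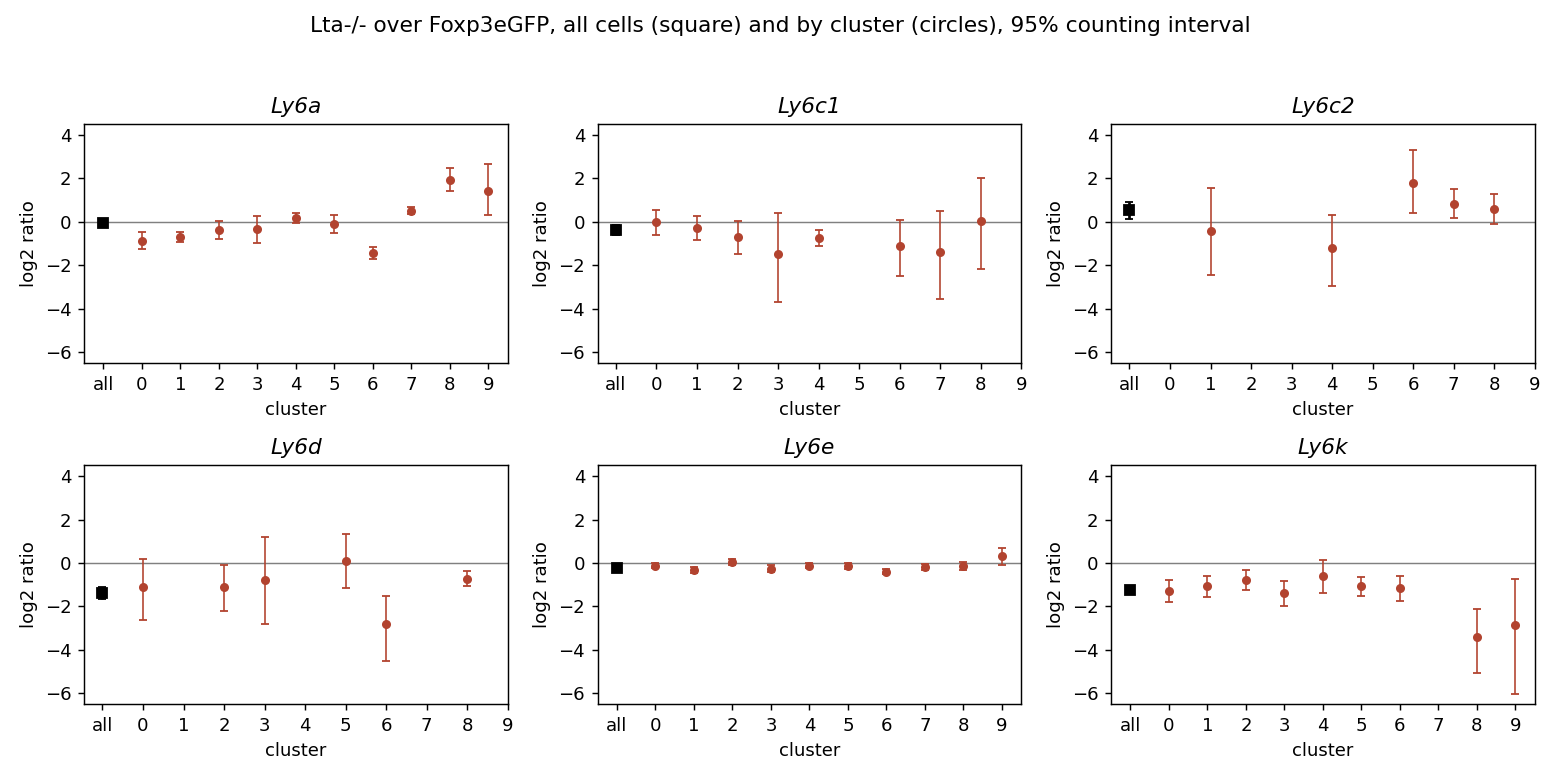
Log2 ratio of the level of each Ly6 gene, Lta-/- over Foxp3eGFP, in all cells (square) and in each cluster (circles) with at least 10 UMIs; lines, 95% counting interval; the line at 0 marks equal levels. Ly6k lies below 0 in all cells (-1.26) and in each cluster drawn, while Ly6a lies above 0 in cluster 7 and below 0 in cluster 6.

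Few genes next to Ly6d and Ly6k on chromosome 15 could be measured. The genes directly beside Ly6k, Ly6g6g and Gml, had 3 and 0 UMIs, too few for a ratio. Of genes nearby, Them6 had a log2 ratio of -0.01 (-0.22 to 0.19). Lynx1, which lies beside Ly6d, had -0.39 (-1.01 to 0.22). Ly6i, which lies between Ly6e and Ly6a, was at -2.91 (-6.07 to -0.82), but its 18 UMIs are under the 50 set for a ratio. On the far side of the family, Gsdmd had 0.08 (-0.13 to 0.29) and Top1mt 0.05 (-0.36 to 0.47). Of 26 GPI anchor genes 0 were higher and 0 lower, and of 14 other GPI-anchored surface genes measured 2 were higher (H2-Q6 at 0.94 and H2-Q7 at 0.91) and 0 lower. Of 29 interferon response genes 0 were higher and 10 lower, with a median log2 ratio of -0.41 against 0.00 over all measured genes.

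Foxp3 and Il2ra UMIs split the cells into 584 with Il2ra only (13.1%), 497 with Foxp3 only (11.2%), 2982 with neither (67.0%) and 390 with both (8.76%), at median depths of 5842, 4644, 5518 and 5636 UMIs. Foxp3 encodes the master factor of Treg cells and CD25 the high-affinity interleukin-2 receptor chain. The class with both is used as the base of all ratios here, so the comparisons share it. The classes were made from UMIs and not sorted, so none is a purified stage, and a cell without a UMI may still express the gene.

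Ly6c1 was lowest in cells with neither transcript. It had 29.4 CPM with Il2ra only, 25.8 with Foxp3 only, 16.7 with neither and 38.6 with both. The log2 ratio of neither over both was -1.21 (-1.54 to -0.87), and it was -1.28 in Lta-/- and -1.14 in Foxp3eGFP cells. With cells thinned to 3000 UMIs and classes made again it was -0.47 (-1.16 to 0.32), under 1.5-fold, and Il2ra only over both was 0.25 (-0.55 to 1.11). Foxp3 only over both was -0.58 (-1.05 to -0.12), and Il2ra only over both was -0.39 (-0.79 to 0.01). Within mature Treg-like cluster 4 the order was not seen, with 77 UMIs in cells with neither and 57 in cells with both (log2 ratio 0.25, -0.27 to 0.77).

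Ly6a had the other order, with 130 CPM in cells with Il2ra only, 144 with Foxp3 only, 155 with neither and 113 with both. Neither over both was 0.46 (0.28 to 0.64) in all cells and 1.24 (0.92 to 1.56) within cluster 4. Foxp3 only over both was 0.35 (0.13 to 0.58). None of these reached 1.5-fold in all cells. Without cluster 7, Foxp3 only over both was -0.04 (-0.31 to 0.23) and Il2ra only over both was -0.18 (-0.43 to 0.06). Neither over both was then 0.35 (0.16 to 0.55), so of these classes only cells with neither stayed above cells with both. Ly6e was nearly level at 695, 716, 616 and 685 CPM in the same class order, and Ly6c2 had 4.27, 4.86, 10.2 and 2.76 CPM (neither over both 1.88, 0.81 to 3.21, with 7 UMIs in the class with both).

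Ly6k had 55.8 CPM with Il2ra only, 35.5 with Foxp3 only, 40.0 with neither and 41.0 with both. Its highest class had a log2 ratio of 0.45 (0.10 to 0.80) over both, within 1.5-fold. The genotype ratio of Ly6k was below 0 in each class, at -1.34 with Il2ra only, -0.67 with Foxp3 only, -1.25 with neither and -1.69 with both. It was therefore lower in Lta-/- cells whichever of these transcripts a cell had.

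Ly6d stood out with Il2ra only, at 54.1 CPM (215 UMIs) against 6.30 CPM (16 UMIs) with both, a log2 ratio of 3.10 (2.37 to 3.93). It had 5.61 CPM with Foxp3 only and 16.8 CPM with neither (1.41 over both, 0.69 to 2.24). Nearly all of the first came from the Foxp3eGFP mouse: the class with Il2ra only had 19 Ly6d UMIs in Lta-/- and 196 in Foxp3eGFP cells, and Il2ra only over both was 0.26 in Lta-/- and 4.39 in Foxp3eGFP cells. Without cluster 8 the ratios were 1.00 for Il2ra only and 0.02 for neither, and without the 45 cells with the most Ly6d UMIs Il2ra only over both was -1.10. Double-positive thymocyte markers were higher with Il2ra only than with both in 3 of 6 measured, 0 were lower, their sum was 382 CPM with Il2ra only and 253 CPM with both, and none of 11 was at 0 in these cells. Of gamma-delta T cell markers 3 of 5 measured were higher and 0 lower, with sums of 131 CPM with Il2ra only and 74.5 CPM with both and 1 of 10 at 0. Whether these cells carry the Ly6d difference was not tested.

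Counted by the same 1.5-fold rule, 1 of 5 measured Ly6 genes (Ly6d) was higher and 0 lower with Il2ra only, where 10% and 4.95% of 8169 genes were. With Foxp3 only, 0 of 4 were higher and 0 lower, where 3.93% and 3.92% of 7585 genes were. With neither, 2 of 6 (Ly6c2 and Ly6d) were higher and 1 (Ly6c1) lower, where 14.3% and 7.47% of 10337 genes were. The counts with Il2ra only and with Foxp3 only rest on at most 1 gene and give no pattern for the family. Of other GPI-anchored surface genes, 1 of 13 was higher with Il2ra only (Cd24a at 2.49) and 4 lower (Cd55 at -1.14), and with neither 2 of 14 were higher (Cd24a at 1.62) and 8 lower (Cd55 at -2.32, Nt5e at -1.77). Of 20 maturation and egress genes, 0 were higher and 5 lower with Il2ra only (S1pr1 at -0.99), and 4 were higher (Il7r at 1.66, Igfbp4 at 1.53) and 7 lower with neither.

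**Figure D3:**
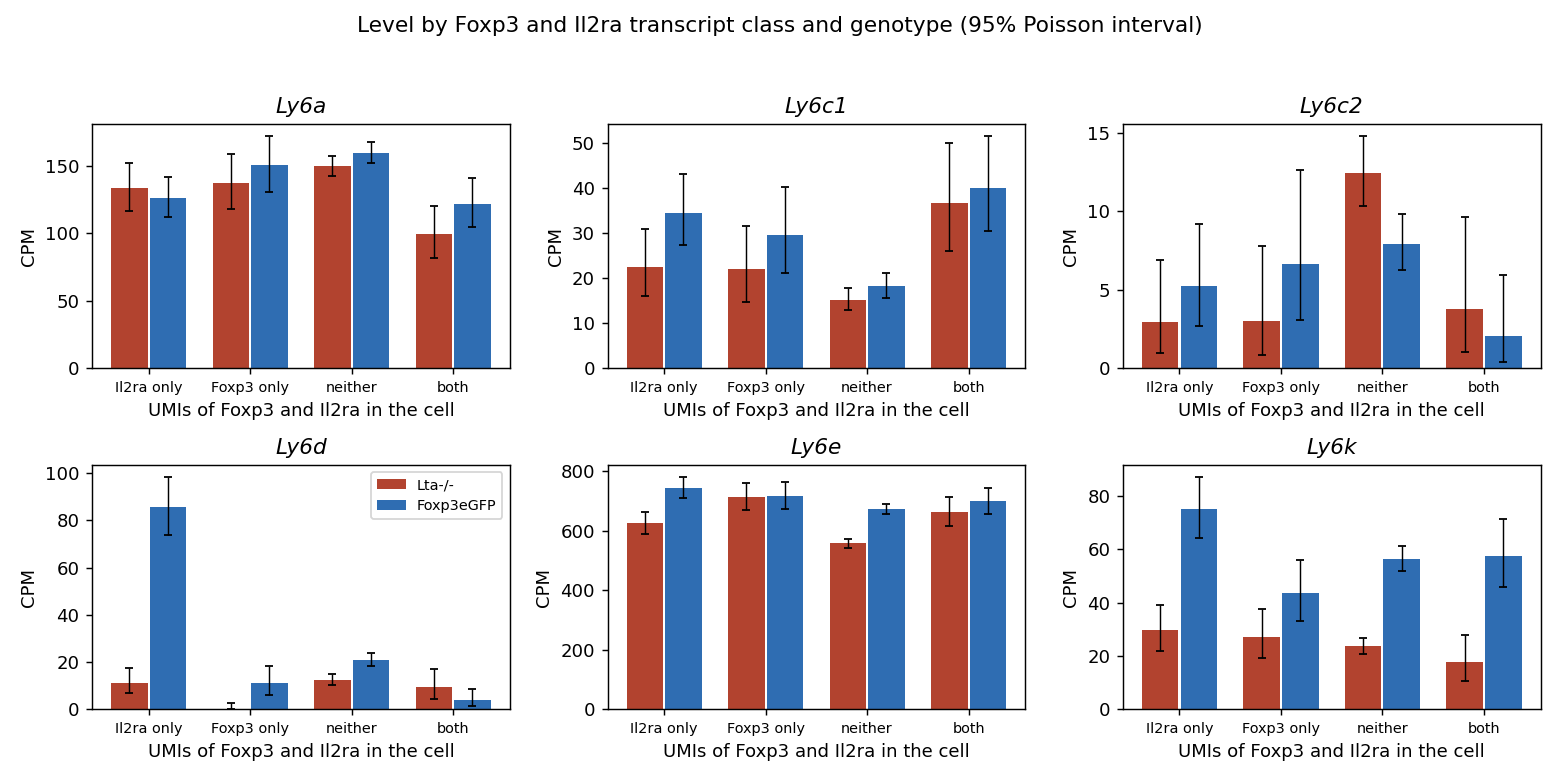
Level (CPM) of each Ly6 gene in cells with UMIs of Il2ra only, Foxp3 only, neither or both, in Lta-/- (red) and Foxp3eGFP (blue) cells; lines, 95% Poisson interval. Ly6k bars of Lta-/- cells are lower in each class, and the high Ly6d bar with Il2ra only is that of Foxp3eGFP cells (196 UMIs against 19 in Lta-/- cells).

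Isg15 encodes a ubiquitin-like protein induced by type I interferon, and 2137 cells had a UMI of it (48.0%, median depth 5905 UMIs) while 2316 had none (5101). Cells with Isg15 were 39.1% of Lta-/- and 57.0% of Foxp3eGFP cells. Ly6a had 172 CPM in cells with Isg15 and 119 CPM in cells without, a log2 ratio of 0.53 (0.44 to 0.62). Ly6e had 699 CPM with and 578 CPM without (0.27, 0.23 to 0.32), Ly6c1 23.9 CPM with and 18.1 without (0.40, 0.16 to 0.64) and Ly6k 45.9 CPM with and 37.2 without (0.30, 0.14 to 0.47). Ly6d was at -0.02, and at 0.66 (0.20 to 1.12) without mixed cluster 8. Ly6c2 was at -0.31 (-0.69 to 0.07), and at -0.51 (-0.97 to -0.05) without that cluster, and this pooled value sums opposite directions in the mice that are given below. The intervals of Ly6a, Ly6e, Ly6c1 and Ly6k lay above 0 over both mice together. The share of all genes with such an interval was not computed, so this gives no pattern for the family. By the 1.5-fold rule 0 of the 6 Ly6 genes were higher and 0 lower, where 3.59% and 2.45% of 10709 genes were. For Ly6k the interval within each mouse held 0. It was at 0.17 (-0.15 to 0.48) in Lta-/- and at 0.05 (-0.15 to 0.25) in Foxp3eGFP cells. With cells of both mice thinned to 3000 UMIs and classes made again, Ly6a (0.64), Ly6c1 (0.63) and Ly6k (0.61) passed that fold. All 28 interferon response genes other than Isg15 were higher, with a median log2 ratio of 1.05 against -0.04 over all genes, and 9 of 17 interferon-gamma genes were higher.

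Over all cells, Ly6a and Ly6e were higher at each step of Isg15 UMIs. At 0, 1, 2 to 4 and 5 or more Isg15 UMIs, Ly6a had 119, 129, 150 and 252 CPM and Ly6e had 578, 659, 671 and 782 CPM. The pooled intervals overlapped for Ly6a at 0 and 1 UMI and for Ly6e at 1 and 2 to 4 UMIs. In Lta-/- cells Ly6a had 130, 125, 163 and 219 CPM, so the first step was not an increase there, and in Foxp3eGFP cells it had 102, 132, 141 and 266 CPM. Ly6e had 543, 618, 616 and 768 CPM in Lta-/- cells, so the second step was not an increase there. In Foxp3eGFP cells Ly6e had 627, 697, 706 and 788 CPM. Ly6k had 37.2, 36.5, 51.7 and 49.2 CPM over the same steps in all cells, and Ly6c1 had 18.1, 22.8, 26.5 and 21.6 CPM. The summed interferon response list had 4052, 5417, 6845 and 9927 CPM. Median depth also climbed, to 6808 UMIs in the top step, and 12 of 12 proliferation markers were higher in cells with Isg15 than in cells without. Ly6a was the Ly6 gene with the steepest course, though shallower than the list.

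The Ly6a difference by Isg15 held within clusters. Cells with Isg15 were above cells without in 9 of 10 clusters, with intervals above 0 in clusters 1, 2, 3, 5, 6, 7 and 9, and mixed cluster 8 was the exception at -0.66. It was 0.29 in Lta-/- and 0.82 in Foxp3eGFP cells. For Ly6c1 the mice stood the other way round, at 0.67 in Lta-/- and 0.08 in Foxp3eGFP cells. Ly6c2 was at -1.92 (-2.64 to -1.27) in Lta-/- and at 2.33 (1.42 to 3.38) in Foxp3eGFP cells. Few cells carry these Ly6c2 ratios, and the intervals do not cover differences between cells. In Lta-/- cells a Ly6c2 UMI was found in 1.82% with Isg15 (16 cells) and 1.83% without (25 cells). In Foxp3eGFP cells it was found in 2.38% with Isg15 (30 cells) and 0.74% without (7 cells). The difference between the genotypes in the ratios by Isg15 was not tested.

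Ly6k was lower in Lta-/- cells at each step of Isg15 UMIs. Its Lta-/- over Foxp3eGFP log2 ratio was -1.31, -1.30, -1.25 and -0.81 at 0, 1, 2 to 4 and 5 or more Isg15 UMIs. For Ly6e the ratios were -0.21, -0.17, -0.20 and -0.04, and in the top step the interval (-0.14 to 0.07) held 0. For Ly6a they were 0.35, -0.08, 0.21 and -0.28, with no common sign. Among cells with no Isg15 UMI, Ly6c2 had 114 UMIs in 25 Lta-/- cells and 11 UMIs in 7 Foxp3eGFP cells. Cells of the same step were not equal in interferon response genes. At 0 Isg15 UMIs the summed list without Isg15 had 3681 CPM in Lta-/- and 4573 CPM in Foxp3eGFP cells. At 5 or more it had 10033 and 9880 CPM in these genotypes. The part of the interferon response in the genotype differences was not tested.

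**Figure D4:**
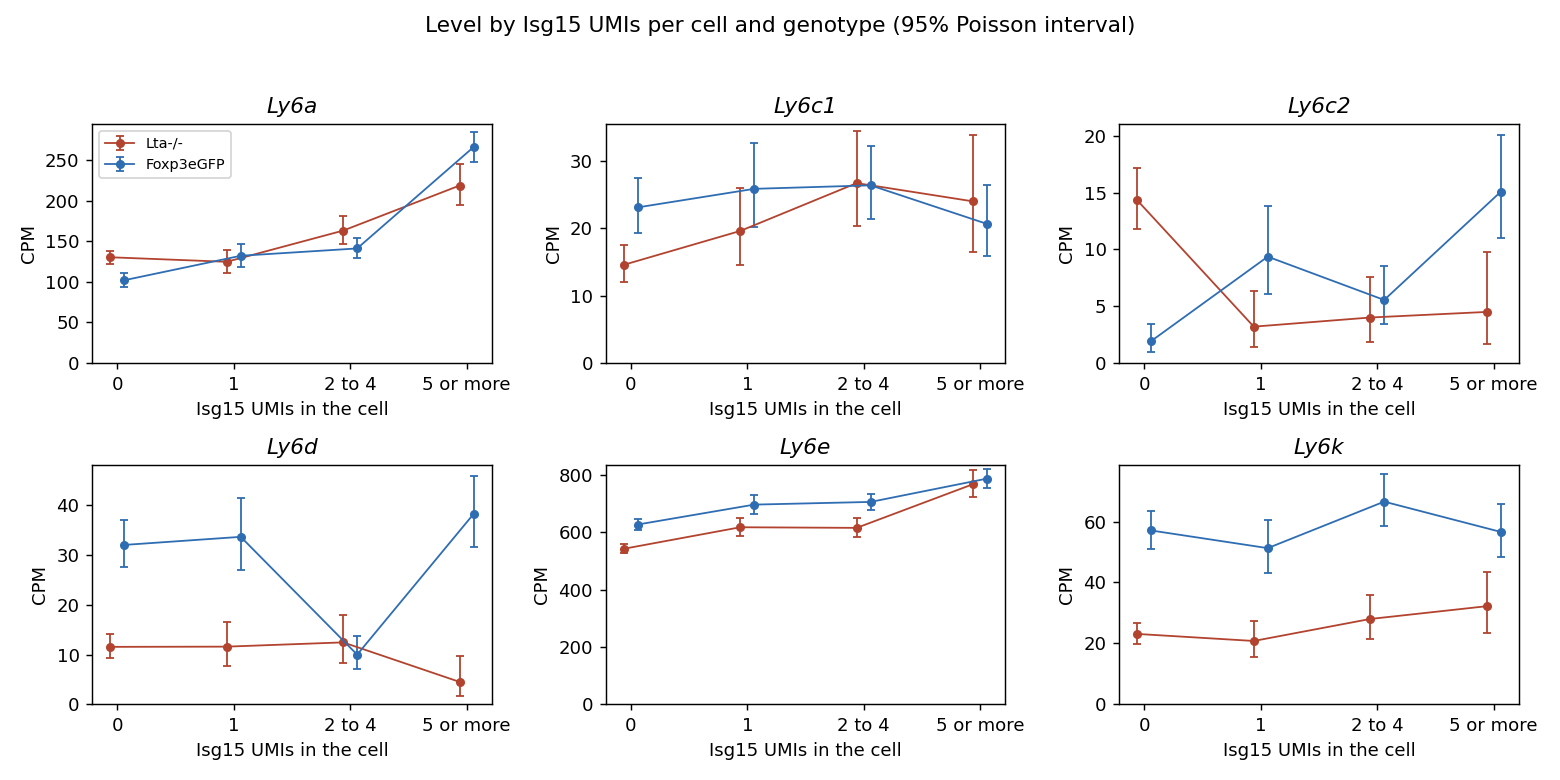
Level (CPM) of each Ly6 gene in cells with 0, 1, 2 to 4 and 5 or more Isg15 UMIs, in Lta-/- (red) and Foxp3eGFP (blue) cells; points, level; lines through points, 95% Poisson interval. Ly6a is highest at 5 or more Isg15 UMIs in both genotypes (219 CPM in Lta-/- and 266 CPM in Foxp3eGFP cells), and Ly6k of Lta-/- cells lies below that of Foxp3eGFP cells at each step.

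Cells were also split by 8 genes that mark thymic T cell states, comparing cells with a UMI with cells without. Activation and signalling came first. Tnfrsf9, which encodes the costimulatory receptor 4-1BB, was found in 1465 cells. There Ly6a had 73.5 CPM with Tnfrsf9 and 189 CPM without (log2 ratio -1.36), Ly6c1 had a ratio of -1.57, Ly6c2 -1.97 and Ly6d -1.36, while Ly6k was at 0.44 and Ly6e at -0.21. Of 6 genes 0 were higher and 4 lower, where 8.3% and 8.92% of 10709 genes were. Nr4a1, an early gene of T cell receptor signalling, gave the same 4 lower and 0 higher (5.52% higher and 7.18% lower in the background), with Ly6a at -1.41 and Ly6k at 0.37. For Ctla4, an inhibitory receptor of Treg cells, 0 were higher and 2 lower (background 4.89% and 9.21%), namely Ly6c2 at -1.02 and Ly6d at -0.82. Ly6a and Ly6c1 were thus lower, and Ly6k a little higher, in cells with Tnfrsf9 or Nr4a1.

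The maturation markers gave the opposite order for Ly6a and Ly6c1. With S1pr1, the egress receptor, Ly6c1 had 32.5 CPM with and 9.93 CPM without (log2 ratio 1.71), and Ly6a had 184 CPM with and 110 CPM without (0.75). Of 6 genes 2 were higher and 2 lower (Ly6c2 at -1.17, Ly6d at -1.02), where 6.29% and 12.2% of genes were. Dapl1, on the list of mature single-positive markers and found in 173 cells, went with Ly6c1 (1.10) and Ly6a (0.69), and 2 were higher and 2 lower (background 5.35% and 14.1%). The lower ones were Ly6c2, with 2 UMIs in cells with Dapl1 (-2.58, -5.64 to -0.71), and Ly6d, with 0, which allows 3 counts and so a log2 ratio of at most -3.29. With Ccr9, a chemokine receptor of immature thymocytes, Ly6d was higher (1.34) and Ly6a (-1.23), Ly6c1 (-1.38) and Ly6c2 (-1.17) were lower, 1 and 3 of 6 against 6.2% and 4.31% of genes. Ly6a and Ly6c1 were thus higher with markers of late thymic stages and lower with a marker of an early one.

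Mki67, a marker of dividing cells, was found in 391 cells of high depth (median 13443 UMIs). Ly6d had 58.0 CPM with Mki67 and 11.0 CPM without (log2 ratio 2.40, and 1.32 without cluster 8), Ly6c1 was lower (-1.24), Ly6e was at 0.55 and Ly6a at 0.44. That made 1 higher and 1 lower, where 13.1% and 19.7% of genes were. S100a4, a calcium-binding protein gene of effector and memory T cells, was found in 171 cells and separated all 6 genes past 1.5-fold. Ly6a had 673 CPM with S100a4 and 121 CPM without (2.48), and Ly6c2 had 96.7 CPM with and 3.83 CPM without (4.66). Ly6e was higher too (0.62), while Ly6k had 10.9 CPM with and 43.4 CPM without (-1.99), and Ly6c1 (-1.09) and Ly6d (-2.51) were lower. The 3 higher and 3 lower stand against 12.3% and 13.4% of genes. S100a4 also leads cluster 7, so these values and those of that cluster share cells.

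Leaving out mixed cluster 8 ended several of these calls. The Ly6d ratio was then 0.00 with Ccr9, -0.42 with Ctla4 and 0.33 with Tnfrsf9, and at 0.59 with S1pr1 it turned to the other side of 0. The Ly6c2 ratio was then -0.47 with Ctla4 and -0.40 with S1pr1. In cells thinned to 3000 UMIs, Ly6a by S1pr1 was 0.40 (0.27 to 0.53) and Ly6c1 by Nr4a1 was -0.55 (-1.27 to 0.09), both under 1.5-fold, so S1pr1 then had 1 higher gene. Ly6c2 and Ly6d, the lower genes by Dapl1, had 0 UMIs left in thinned cells with Dapl1. With 0 set to 3 counts their ratios were 0.09 and -0.42, also under 1.5-fold. Ly6k by Dapl1 (-1.47, -3.10 to -0.24) and Ly6c2 by Mki67 (-2.97, -8.29 to -0.46), with 5 UMIs and 1 UMI left in the cells with the state gene, passed the fold in the thinned cells but not in all cells. Over all 8 state genes, with mixed cluster 8 kept and cells not thinned, 9 of 48 ratios were higher and 21 lower. These ratios reuse the same genes and cells, and some of the calls are those lost above. The share of all genes was computed for each state gene only, so the pooled counts give no pattern for the family.

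**Figure D5:**
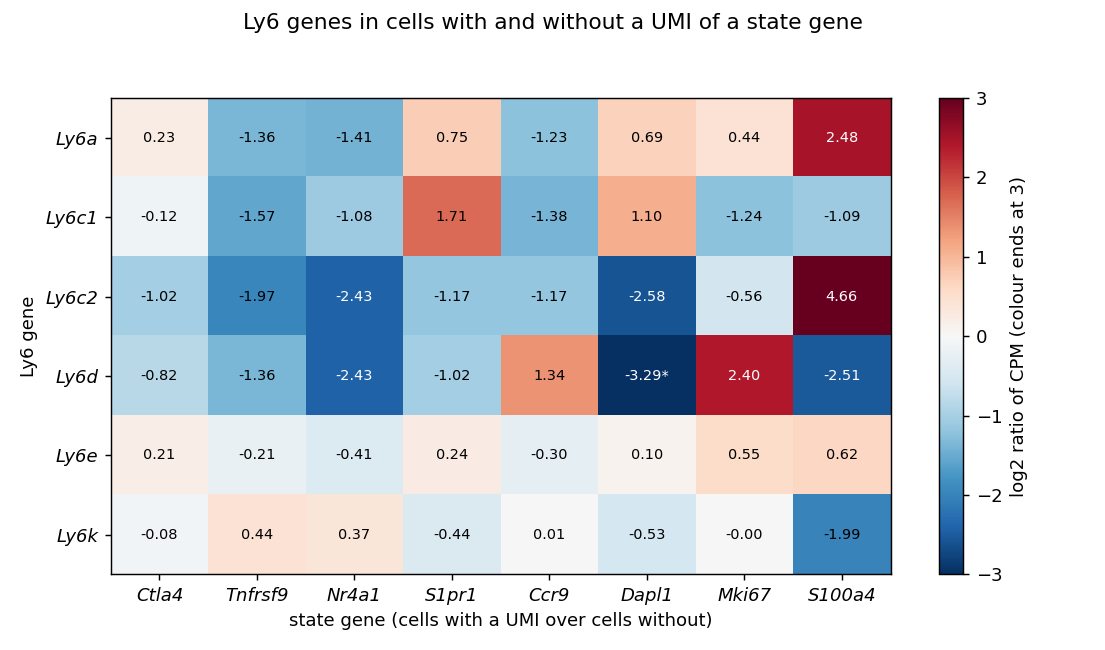
Log2 ratio of the level of each Ly6 gene (down) in cells with a UMI of a state gene over cells without (across); red, higher with the state gene; blue, lower; the colour scale ends at 3. Ly6a and Ly6c1 are blue with Tnfrsf9, Nr4a1 and Ccr9 and red with S1pr1 and Dapl1, and Ly6k is blue with S100a4 (-1.99). The asterisk marks a value with 0 UMIs set to 3 counts.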

How the data were processed

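RNA and hashtags of 1 pooled thymic capture were measured by 10x Genomics 3′ v3.1 sequencing. The deposited matrix holds raw UMI counts of each gene in each barcode, whole numbers made by the authors with no normalization. Per the submitters' processing notes, the tool was Cell Ranger 6.0.1 and the builds mm10 and GRCm38, with no role stated. Settings for counting and cell calling are not stated in the labels. No column of per-sample values was left unused (0).

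The cell filter asked for 500 genes or more and a mitochondrial share of 10% or less, which 4638 of 4798 barcodes passed. A genotype needed at least 10 hashtag counts and 80% of the hashtag counts of a cell. The 185 cells with both hashtags (3.99%, median 10532 UMIs) were removed as doublets. No doublet caller was run, so doublets within a genotype remain. Raw UMIs were summed per group, with exact Poisson intervals for levels, Clopper-Pearson intervals for shares and conditional binomial intervals for ratios. A group at 0 counts was given 3. With 1 mouse per genotype, no p-value was computed, and the fold rule is 1.5 with at least 50 UMIs. The calculation was tested on simulated data.

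Clusters came from scanpy 1.11.5: 2000 variable genes, scaled, 30 principal components, 15 neighbours and Leiden resolution 0.6, without the 6 Ly6 genes, Foxp3, Il2ra, Isg15, Lta, Ltb, receptor segments and sex-linked marker genes. Scaling and leaving out all receptor genes were chosen after values had been seen, because other cell types then separated better. A cluster was named from the list with most markers higher, at least 3, and stayed unnamed where its leading genes came from several lists or from none. The members, gene lists and state genes were chosen with earlier results of these data known. The genes named are the 6 members, up to 5 of the most similar genes of each, and up to 4 genes with the largest ratios per list, and a few genes that this rule names are not reported here. Sequences are RefSeq's (GRCm38.p6), which held starts of Ly6c1 and Ly6c2. Other software was igraph 0.11.9, matplotlib 3.10.9, biopython 1.88, scipy 1.17.1, numpy 2.4.6, scikit-learn 1.9.0 and pandas 2.3.3 in Python 3.11.15. Alternatives tried were other cell filters, thinning to 3000 UMIs, equal weight per cell, leaving out clusters or the cells with the most UMIs of a gene, other hashtag calls, single mice, classes from 2 UMIs and other cluster settings.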

Additional observations from a re-analysis of the deposited data

Results flagged for a closer look

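Ly6a had opposite genotype ratios in different clusters. Its log2 ratio of Lta-/- over Foxp3eGFP was 0.51 (0.34 to 0.69) in cluster 7 and 1.94 (1.42 to 2.49) in mixed cluster 8. It was -0.87 (-1.26 to -0.49) in cluster 0, -0.70 (-0.91 to -0.48) in mature CD4 single-positive-like cluster 1 and -1.43 (-1.70 to -1.18) in proliferating-like cluster 6. What drew attention was that intervals on both sides of 0 occurred for 1 gene under the same contrast; the difference between clusters was not tested. Without the 45 cells with the most Ly6a UMIs the ratio was 0.80 in cluster 7, 2.02 in cluster 8, -0.87 in cluster 0, -0.53 in cluster 1 and -1.05 in cluster 6. A single Foxp3eGFP cell of cluster 6 held 91 Ly6a UMIs, of 617 in that genotype there. The intervals hold counting error only, and each genotype is 1 mouse.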

How the results depend on the processing

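No paired analysis was possible because there is 1 mouse per genotype and no replicate number is shared. Of 449 single-gene values under an alternative, 43 had the opposite sign, 6 of them past 1.5-fold as reported. Those 6 are Ly6c2 and Ly6d. Without the 1% of cells with the most UMIs of the gene, Ly6d was 0.22 for Lta-/- over Foxp3eGFP, -1.10 for Il2ra only over both and -0.91 for neither over both, and Ly6c2 was -0.96 for neither over both. The cells left out held 86.6% of Ly6d and 86.2% of Ly6c2 UMIs. For Ly6c2 they reached down to cells with 1 UMI, where the cut among equal cells is arbitrary. Without the mixed cluster, Ly6d was 0.33 by Tnfrsf9 and 0.59 by S1pr1. The cause was not tested.

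The count of Ly6 genes past 1.5-fold moved as follows. For Lta-/- over Foxp3eGFP it was 2, and 4 with thinned cells and 1 without the cells with the most UMIs. For Il2ra only over both it was 1, and 0 with thinned cells, 0 without the cells with the most UMIs, 2 in the Lta-/- mouse alone and 4 with classes from at least 2 UMIs. For Foxp3 only over both it was 0, and 1 with thinned cells, 1 without cluster 7 and 2 in the Lta-/- mouse alone. For Isg15 it was 0, and 3 with thinned cells, 1 without the mixed cluster, 1 without cluster 7, 1 with a class from at least 2 UMIs, and 2 in the Lta-/- and 2 in the Foxp3eGFP mouse alone. The counts for neither over both (3) and by state gene (30) stayed within 1.5 times under the alternatives run. The count by cluster (6) did so too, but it compares the highest with the lowest cluster of each gene. These were picked from the same data, so that count was nearly set in advance. The share of all genes past the fold was not computed under the alternatives. The alternatives without cluster 7, without the mixed cluster for state genes and without scaling were chosen after seeing the data. Depth limits Ly6c2 (239 UMIs) and Ly6d (580 UMIs) most, and a thinned class is not the same set of cells. Ratios with 0 UMIs under an alternative were not compared.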
